A study of Homo sapiens with 14 samples.

Results

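In the human gastric cancer line NUGC4, ARID1A was lowered by CRISPR interference (CRISPRi) with 1 guide RNA, called sgRNA1, and the knockdown cells were compared with cells that carried the CRISPRi vector control. The comparison held 3 of the 13 libraries of the series that were matched by name: 2 sgRNA1 libraries and 1 vector library. A second vector library is listed in the labels and was not analysed here, because no column of the count table carries its name. The genes described are those with a mean of at least 5 CPM (counts scaled to the size of the library) in sgRNA1 or in the vector, which were 11609 of the 59250 gene rows. Unmodified NUGC4 cells (wild type, 4 libraries) lent their spread to the test and give the level without a construct. Their libraries also differ in RNA content, as given below. Cells of ARID1A knockout clones (2 libraries by name) did not enter the test, and are used for levels and in alternative fits. The labels do not give the guide's sequence, the repressor fused to the inactive Cas9, or whether a group's libraries were separate cultures. The p-values therefore measure the spread among these libraries, which may be technical.

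ARID1A is the DNA-binding subunit that defines the canonical BAF (SWI/SNF) complex, which uses ATP to slide and evict nucleosomes and keeps enhancers accessible to transcription factors. ARID1A is often inactivated by mutation in gastric cancer, and its paralog ARID1B can take its place in the complex. In CRISPRi a Cas9 without nuclease activity carries a KRAB repressor domain to the promoter chosen by the guide. KRAB recruits TRIM28 and histone H3 lysine 9 methylation, so transcription falls while the gene's sequence stays intact.

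ARID1A transcripts fell to 0.42 of the vector level. ARID1A (chromosome 1, 26696015 to 26782104, GRCh38.p14) gave 141.71 CPM with the vector and 62.18 and 58.18 CPM with sgRNA1, where CPM are scaled to library sizes with TMM factors. The wild-type libraries held 112.13 to 128.51 CPM, so both sgRNA1 libraries lay below every wild-type library and the vector lay above them. The log2 fold change, sgRNA1 minus vector, was −1.24 ± 0.12 (SE, n = 2 and 1), with a p of 3.2e-06 from the quasi-likelihood test of edgeR after Benjamini-Hochberg adjustment over all genes tested. Knockout replicate 1 held 36.3 CPM. The library labelled knockout replicate 2 held 145.1 CPM, which goes against its label, and it is therefore used as neither a knockout nor a control. The ARID1A promoter, the region where a repressor guided to this gene would act, is printed as the 250 bases before the RefSeq start, rich in C and G, all in lower case because it held no match to the motifs searched below.

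ARID1A promoter, chr1:26695765-26696014, plus strand: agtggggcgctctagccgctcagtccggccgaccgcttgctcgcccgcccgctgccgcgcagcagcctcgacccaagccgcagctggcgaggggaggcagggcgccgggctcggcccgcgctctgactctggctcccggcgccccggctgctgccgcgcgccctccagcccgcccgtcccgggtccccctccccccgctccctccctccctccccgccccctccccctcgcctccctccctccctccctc

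Genes that lend their KRAB domain to CRISPRi repressors differed too. ZIM3, the source of a strong KRAB domain, had 0 counts in the vector and in all 4 wild-type libraries, but 28.2 and 30.7 CPM (426 and 498 counts) in sgRNA1. That is at least 154.7-fold higher (floor of 3 counts in the vector library; such floors cover counting error only). ZNF10, the source of the KRAB domain of the first CRISPRi repressors, stood at 23.7 CPM in the vector and at 0.07 and 0 CPM in sgRNA1. In wild type it reached at most 0.20 CPM, and the library labelled knockout replicate 2 held 20.5 CPM. Gene-level counts do not tell a gene's own transcript from a construct's. The sgRNA1 and vector libraries thus differed in ZIM3 and ZNF10 as well as in the guide, and for every gene below these differences cannot be told apart.

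The vector and sgRNA1 libraries were alike in depth and RNA content and unlike wild type. Their total counts were 15990038 (vector), 16297453 and 17668394 (sgRNA1), against 9167761 to 12879594 in wild type, and 5 CPM stood for 79, 76 and 81 counts. Ribosomal RNA took 0.165 to 0.176% of their counts, against 8.04 to 11.7% in wild type. Mitochondrially encoded genes took 7.96 to 8.16%, against 0.985 to 2.50%. For levels set against wild type, the constructs and this difference in RNA content cannot be told apart. A chi-square of counts over genes gave 3.75 per degree of freedom between the sgRNA1 libraries, and 30.9 and 32.4 between each and the vector. It gave 2.57 between labelled knockout replicate 2 and the vector, and 6.62 to 20.8 between pairs of wild-type libraries. All 6 epithelial markers were present, with KRT8 at 4758 CPM in the vector and EPCAM at 359, whereas PTPRC, CD3E, COL1A2, COL3A1, CDH5 and ALB, which define other cell types, stood between 0 and 0.18 CPM in these 3 libraries. At or above 5 CPM were 1 of 13 hepatocyte markers (SERPINA1), 1 of 8 fibroblast markers (COL1A1), 2 of 8 leukocyte markers (ITGAM and CD68) and 0 of 6 endothelial markers. Of these 4 genes CD68, a lysosomal protein gene, passed the test (109.2 CPM in the vector, 160.2 and 182.0 in sgRNA1).

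Across the 11609 genes 806 rose (6.94%) and 649 fell (5.59%) in sgRNA1 against the vector, at an adjusted p under 0.05. These shares are the background for the counts of every list below. The median log2 fold change was 0.79 among the genes that rose and −0.79 among those that fell, and 0.04 over all 11609. Of the changed genes 247 rose and 196 fell by at least 1 on the log2 scale, and 54 and 21 by at least 2. Long noncoding RNA genes made up 23 of the rises and 84 of the falls, and protein-coding genes 760 and 531. Only 12 of the genes that rose stood under 1 CPM in the vector, so most rises added to a transcript already present. Genes at the edge of the level minimum included OR7E14P (5.007 CPM) and AGBL2 (5.009) inside it and STOML1 and TMEM241 (4.9997 each) outside it. These calls rest on the wild-type spread and on both sgRNA1 libraries. With all 9 NUGC4 libraries in 1 fit as their labels group them, no gene passed in edgeR (527 higher and 469 lower at an unadjusted p under 0.05), while without sgRNA1 replicate 1 or 2 the counts were 405 and 335, or 403 and 285.

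FN1 gave the largest rise of any abundant gene that the naming rule took. FN1, which encodes the matrix protein fibronectin (chromosome 2, 215360865 to 215436068), stood at 21.1 CPM in the vector and at 1261 and 1222 CPM in sgRNA1. The sgRNA1 mean was thus 58.99 times the vector, a log2 fold change of 5.88 ± 0.18 (edgeR, adjusted p = 6.3e-13). Wild type held 1.06 to 2.08 CPM and knockout replicate 1 528 CPM, so sgRNA1 was the highest of all NUGC4 groups and the vector already lay above wild type. The 3′ end of FN1 overlaps ATIC, which did not pass the test (log2 fold change 0.11). Its promoter is shown because it carries a full cyclic AMP response element, TGACGTCA, in capitals, which begins 183 bases before the start.

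FN1 promoter, chr2:215436069-215436318, minus strand: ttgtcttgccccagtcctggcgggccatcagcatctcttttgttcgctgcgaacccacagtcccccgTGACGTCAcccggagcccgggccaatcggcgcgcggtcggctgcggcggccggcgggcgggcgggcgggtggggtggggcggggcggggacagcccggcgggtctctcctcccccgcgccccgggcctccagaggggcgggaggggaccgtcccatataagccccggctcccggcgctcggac

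That motif, searched on both strands, occurred in 1.77% of 27305 RefSeq promoters of this length. It was in 2.98% of the 9126 promoters of genes at or above 5 CPM, in 1.91% of those of genes that rose and in 2.33% of those of genes that fell.

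SPOCK3, a secreted proteoglycan gene, had 0 counts in the vector and wild type and 39.1 and 30.7 CPM in sgRNA1, at least 183-fold higher (floor of 3 counts in the vector library). Knockout replicate 1 held 42.4 CPM of it. PHLDB2, which encodes a scaffold that anchors microtubules near focal adhesions, went from 0.32 to 11.6 and 9.42 CPM, and CABP1, a neuronal calcium-binding protein gene, from 0.38 to 10.5 and 9.54 CPM. PRDM8, a histone methyltransferase family gene, stood at 0.51 CPM in the vector and 11.9 and 10.5 CPM in sgRNA1. In these 4 genes the vector lay within or below the wild-type range, and knockout replicate 1 lay above it.

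PLAT, the tissue plasminogen activator gene, rose from 0.25 to 5.36 and 6.46 CPM, but stood at 0.08 CPM in knockout replicate 1. SERPINE2, an inhibitor of plasminogen activators and thrombin, rose from 0.95 to 10.5 and 9.97 CPM. Receptor and channel genes were also among the largest rises. ACVRL1, a type I receptor for BMP9 and BMP10, went from 0.57 to 10.4 and 9.23 CPM, PTH1R, the parathyroid hormone receptor gene, from 0.76 to 10.9 and 10.3, and KCNH3, a potassium channel gene, from 4.12 to 40.7 and 39.2. PLEKHH2, an actin-associated protein gene, stood at 3.23 CPM in the vector and at 55.6 and 46.4 CPM in sgRNA1. The amino acid transporter gene SLC38A3 went from 0.82 to 9.01 and 10.0 CPM, ARID3A, a DNA-binding protein gene of the ARID family outside BAF, from 0.51 to 4.90 and 6.03, and GRIP2, a glutamate receptor scaffold gene, from 0.76 to 8.41 and 6.71. GRIP2 overlaps SLC6A6, which also rose (0.58). In all the 14 largest rises besides ZIM3, both sgRNA1 libraries lay above the vector and all 4 wild-type libraries, which 35.7% of all genes did. These genes were picked for lying above the vector, which fixes that part, and 93.2% of all genes that rose did the same.

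**Figure D1:**
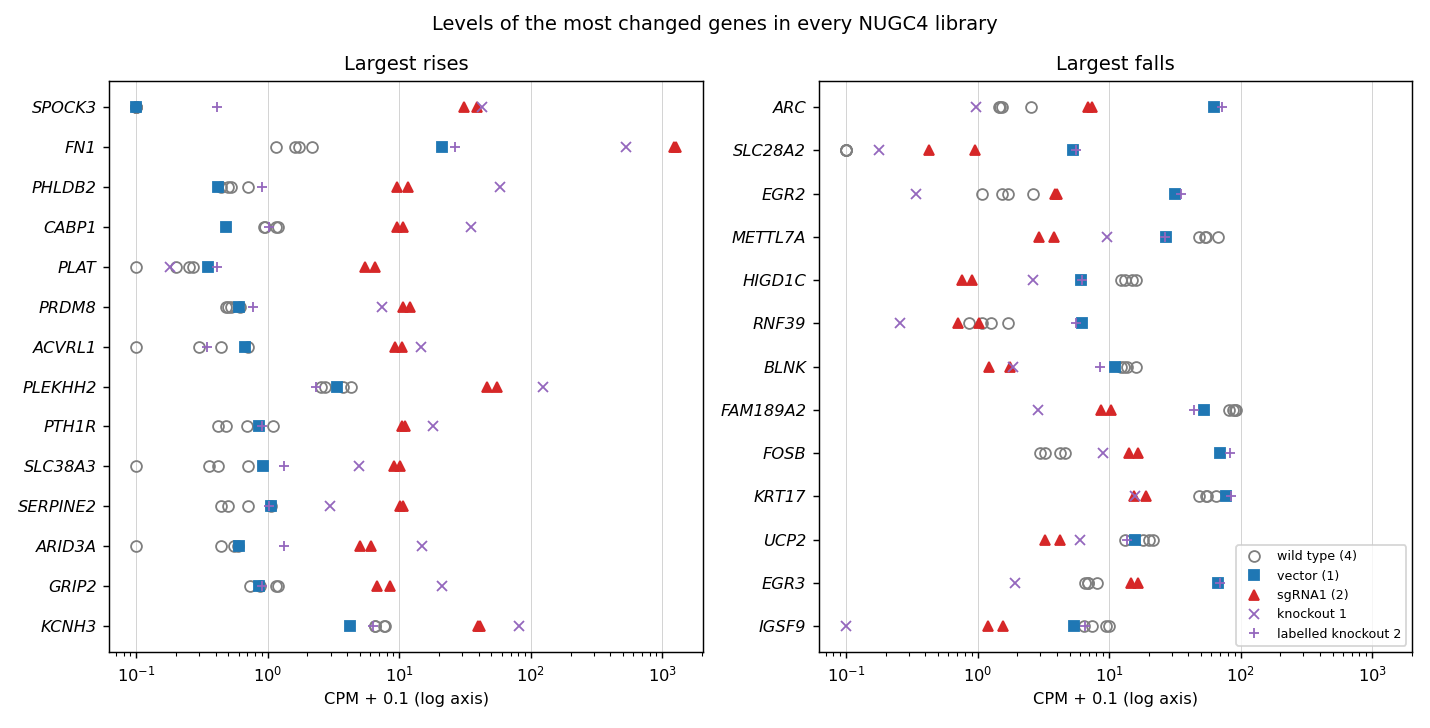
Symbols give CPM + 0.1 on a log axis in each NUGC4 library for the 14 largest rises besides ZIM3 and 13 of the largest falls besides ZNF10. In the left panel both sgRNA1 triangles lie to the right of the vector and every wild-type circle, and in the right panel ARC, EGR2, EGR3 and FOSB lie between wild type and the vector.

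Genes well above the level minimum in the vector also rose. CLDN18, a claudin of gastric tight junctions, stood at 202 CPM in the vector and at 1319 and 1303 CPM in sgRNA1 (2.695 ± 0.13; edgeR, adjusted p = 4.0e-10), above the 121.7 to 129.3 CPM of wild type and near the 1269 CPM of knockout replicate 1. TM4SF4, a tetraspanin-like membrane protein gene named here after its values were seen, went from 160.3 to 1341 and 1357 CPM (3.07 ± 0.14). ALDOC, an aldolase gene of glycolysis, went from 21.6 to 103.6 and 120.5 CPM (2.37 ± 0.16). In these 3 genes the sgRNA1 libraries differed from each other by far less than from the vector.

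Falls split by how the vector itself stood against wild type. METTL7A, a lipid droplet methyltransferase gene, was at 48.1 to 66.6 CPM in wild type, 26.9 in the vector and 2.85 and 3.69 in sgRNA1. FAM189A2, a membrane protein gene, followed the same order with 81.3 to 92.8, 52.6, and 8.61 and 10.3 CPM (−2.47 ± 0.15; edgeR, adjusted p = 1.0e-08). BLNK, a signalling adaptor gene known from B cells, was at 12.2 to 15.9, 11.03, and 1.13 and 1.66 CPM. IGSF9, an adhesion protein gene, was at 6.33 to 9.96, 5.33, and 1.46 and 1.11 CPM. In these 4 genes the vector was below every wild-type library and sgRNA1 below the vector. HIGD1C also fell (5.96 CPM in the vector, 0.66 and 0.80 in sgRNA1), but it overlaps METTL7A between 50931110 and 50932508 on chromosome 12, and the strand setting of the counting is not given, so the falls of this pair are not separate measurements.

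KRT17, a keratin gene of basal and injured epithelium, fell from 77.04 to 15.4 and 19.0 CPM (−2.16 ± 0.16), below the 47.9 to 64.7 CPM of wild type. KRT17 has near-identical pseudogene copies, so its counts are less certain. UCP2, a mitochondrial carrier gene, fell from 15.6 to 4.11 and 3.14 CPM against 13.2 to 21.6 in wild type. SLC28A2, a nucleoside transporter gene, had no counts in wild type, 5.20 CPM in the vector and 0.33 and 0.86 CPM in sgRNA1. RNF39, a RING finger gene, went from 6.15 to 0.93 and 0.62 CPM, with 0.76 to 1.59 CPM in wild type. The latter pair thus moved from the vector level back toward wild type, unlike KRT17 and UCP2.

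Of 35 AP-1 and other immediate early genes at or above 5 CPM, 18 fell, 0 rose and 17 did not pass. These genes are switched on within minutes by growth factors and stress, through serum response factor and ERK signalling, and many encode transcription factors. AP-1 is a dimer of FOS, JUN and ATF family proteins. Of 11 AP-1 subunit genes at or above 5 CPM, 5 fell and 0 rose, against 5.59% lower of all genes, with a median log2 fold change of −0.43. Outside AP-1, 13 of 24 immediate early genes fell and 0 rose, with a median of −0.46. When sgRNA1 replicate 1 or 2 was left out the falls numbered 4 in AP-1 in each case, and 8 or 7 outside it.

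FOSB stood at 69.6 CPM in the vector and at 16.6 and 14.2 CPM in sgRNA1 (−2.18 ± 0.18; edgeR, adjusted p = 3.9e-07). FOS went from 572 to 324 and 331 CPM (−0.80 ± 0.12), JUN from 466.6 to 293 and 299 (−0.66 ± 0.11) and ATF3, the stress-induced member, from 136.7 to 71.3 and 74.4 (−0.91 ± 0.14). JUNB also fell (−0.54), and FOSL1 did not pass the test (134.2 CPM against 119.4 and 120.4; −0.16 ± 0.16). FOSL1 was at 5.25 to 8.75 CPM in wild type, so its level in the vector and in sgRNA1 was far above unmodified cells alike.

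ARC, EGR2 and EGR3 fell further than the other genes of this list outside AP-1 at or above 5 CPM. ARC, whose product shapes synapses and is a classical activity-induced transcript, stood at 62.3 CPM in the vector, 6.75 and 7.26 in sgRNA1 and 1.36 to 2.44 in wild type (−3.15 ± 0.20; edgeR, adjusted p = 2.1e-08). EGR2 went from 31.5 to 3.91 and 3.75 CPM (−3.04 ± 0.26) and EGR3 from 66.6 to 16.6 and 14.5 (−2.10 ± 0.16). EGR1, the most abundant of the family here, went from 829.6 to 426.8 and 464.7 CPM (−0.90 ± 0.11). NR4A1, an orphan nuclear receptor gene, went from 391.4 to 146.9 and 145.4 CPM (−1.42 ± 0.13). ZFP36, which destabilizes AU-rich transcripts, fell from 143.3 to 93.3 and 95.4 CPM, and SRF itself from 92.9 to 67.1 and 64.2. None of the 18 that fell returned to wild type: both sgRNA1 libraries lay above every wild-type library in all 18, which 50.5% of all genes did. The vector lay above every wild-type library in 35 of the 35, which 50.6% of all genes did. Labelled knockout replicate 2 also lay above both sgRNA1 libraries in 18 of 18, against 38.9% of all genes. The 18 were called against the vector, which that library resembles (2.57 in the chi-square given above).

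Serum response factor binds the CArG box, and the promoters of 2 lowered genes that hold it, EGR1 and SRF, are printed with each box in capitals. The boxes begin 105 and 83 bases before the EGR1 start and 30 and 10 bases before the SRF start.

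EGR1 promoter, chr5:138465229-138465478, plus strand: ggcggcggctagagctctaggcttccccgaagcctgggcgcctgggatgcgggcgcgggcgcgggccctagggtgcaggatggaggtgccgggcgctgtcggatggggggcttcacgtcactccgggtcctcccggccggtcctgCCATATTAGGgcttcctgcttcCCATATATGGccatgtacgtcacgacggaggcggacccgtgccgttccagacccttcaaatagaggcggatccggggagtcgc
SRF promoter, chr6:43171019-43171268, plus strand: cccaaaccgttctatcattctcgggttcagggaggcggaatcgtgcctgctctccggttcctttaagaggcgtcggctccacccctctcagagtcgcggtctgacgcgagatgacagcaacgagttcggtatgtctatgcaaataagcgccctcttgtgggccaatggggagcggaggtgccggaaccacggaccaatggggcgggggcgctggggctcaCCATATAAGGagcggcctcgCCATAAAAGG

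A CArG box was present in 2 of 12 promoters of lowered immediate early genes in the RefSeq table, in 1.14% of all 27305 promoters and in 0.997% of those of genes at or above 5 CPM. The AP-1 motif TGANTCA was in 6.60% of all promoters, in 3.78% of those at or above 5 CPM, in 4.94% of genes that rose and 2.97% of genes that fell. Matches are letters in a window and not binding sites.

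Feedback genes of the same pathway went both ways. ERK feedback genes are induced by ERK and dampen it, and among 14 of them 4 rose (6.94% of all genes) and 3 fell (5.59%). DUSP5, a nuclear ERK phosphatase gene, rose from 34.2 to 67.9 and 73.0 CPM (1.04 ± 0.18) and ETV5, an ETS factor gene, from 14.3 to 26.8 and 28.4 (0.94 ± 0.17). The phosphatase genes DUSP2 (78.7 to 30.9 and 35.8 CPM; −1.24 ± 0.18) and DUSP1 (337.3 to 186.9 and 204.6; −0.78 ± 0.12) fell. The ERK feedback genes gave 2 rises and 2 falls without sgRNA1 replicate 1. YAP and TEAD targets, which respond to cell density and tension, gave 2 rises and 2 falls of 14 (6.94% and 5.59% of all genes). CCN2 fell from 112.3 to 25.7 and 31.1 CPM (−1.98 ± 0.15) and CCN1 from 19.6 to 8.67 and 8.31 (−1.21 ± 0.23), while MYOF, a membrane repair gene, rose from 30.6 to 85.9 and 78.2 (1.42 ± 0.16). TEAD1 rose from 42.1 to 69.1 and 56.8 CPM, a call lost without sgRNA1 replicate 1.

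Few subunits of the BAF family of complexes changed. Of 25 BAF, PBAF and ncBAF subunit genes 0 rose (6.94% of all genes) and 2 fell (5.59%), the targeted gene ARID1A and BICRAL. BICRAL, a subunit of the noncanonical complex, went from 33.0 to 21.9 and 20.7 CPM (−0.64 ± 0.16; edgeR, adjusted p = 0.016), a call lost when either sgRNA1 library was left out. ARID1B, the paralog that substitutes for ARID1A, did not pass (74.8 CPM in the vector, 59.8 and 58.4 in sgRNA1; −0.34 ± 0.13; edgeR, adjusted p = 0.11). The ATPase gene SMARCA4 stood at 145.3 against 154.0 and 158.0 CPM and did not pass either.

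Polycomb complexes oppose BAF at silent genes. In that list 4 of 31 genes fell, a share above the 5.59% of all genes, and 0 rose. The falls included CBX8 (50.4 to 29.8 and 30.2 CPM), CBX2 (39.8 to 22.4 and 25.5) and PHC1 (15.6 to 7.88 and 10.1), which are all subunits of the canonical form of PRC1, CBX proteins being its readers of H3K27 methylation. Only 2 of the 4 passed without sgRNA1 replicate 1, and CBX2 lost its call without either sgRNA1 library. None of 23 heterochromatin and DNA methylation genes passed in the edgeR test, against 12.5% of all genes in either direction.

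Interferon-stimulated genes, which form the longest list, gave the largest number of rises among the lists. They are transcribed after interferon binds its receptors, and their products sense and restrict viral RNA. Of 48 at or above 5 CPM, 23 rose and 1 fell, against 6.94% higher and 5.59% lower of all genes, with a median of 0.55. In 37 of the 48, both sgRNA1 libraries lay above the vector and all wild type, which 35.7% of all genes did. The vector itself already lay above all wild type in 30 of the 48, which 50.6% of all genes did. The rises numbered 14 or 11 without sgRNA1 replicate 1 or 2.

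OAS2, an RNA sensor that makes 2-5A, stood at 11.3 CPM in the vector, 44.5 and 46.2 in sgRNA1 and 3.60 to 5.10 in wild type (2.01 ± 0.20; edgeR, adjusted p = 3.1e-06). Its paralog OAS3 went from 60.4 to 108.8 and 105.7 CPM (0.83 ± 0.14). MX1, a GTPase that traps viral nucleocapsids, went from 9.89 to 29.8 and 27.8 CPM (1.54 ± 0.28) and IFITM3, which blocks viral entry, from 60.4 to 137.3 and 137.4 (1.18 ± 0.14). ISG15, the ubiquitin-like modifier, rose from 27.2 to 51.3 and 51.5 CPM and stood at 19.5 to 30.8 in wild type. SAMD9 was the member that fell, from 29.2 to 18.01 and 13.4 CPM (−0.90 ± 0.21), and was named after its values were seen; without sgRNA1 replicate 2 no member fell. Its paralog SAMD9L rose from 1.14 to 4.70 and 5.79 CPM. Knockout replicate 1 held 86.1 CPM of OAS2 and 48.4 of MX1, above sgRNA1, but 65.3 of IFITM3, below it.

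MHC class I molecules show cytosolic peptides to T cells, and interferon also induces them. Of 24 class I and peptide loading genes 10 rose and 0 fell (6.94% and 5.59% of all genes), with a median of 0.41. HLA-B stood at 185 CPM in the vector and at 297.5 and 304.2 in sgRNA1 (0.70 ± 0.13; edgeR, adjusted p = 0.0018). Class I genes resemble each other in sequence, so reads may be shared between them. The chaperones CALR (302.5 to 450.5 and 477.2 CPM) and PDIA3 (266.2 to 355.4 and 374.2) also serve the unfolded protein response. TAP1, which pumps peptides into the endoplasmic reticulum, went from 48.6 to 74.0 and 73.3 CPM (0.60 ± 0.16). Only 3 or 2 of the list rose without sgRNA1 replicate 1 or 2, PDIA3 being among the calls lost without replicate 2.

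Most inflammatory genes did not pass the test, and those that did went both ways. Of 21 NF-kB factors and targets 1 rose (6.94% of all genes) and 3 fell (5.59%), while 13 lay above 0 and the median was 0.21. ICAM1, a leukocyte adhesion receptor gene, rose from 7.93 to 25.1 and 29.0 CPM (1.77 ± 0.24). NFKBIZ, a nuclear IkB protein gene, fell from 107.9 to 67.6 and 63.5 CPM (−0.72 ± 0.12), with 161.6 to 173.5 in wild type. IER3, also counted among the immediate early genes above, and REL were the other falls, with calls lost without either sgRNA1 library. Among 10 chemokine and cytokine genes, 9 of which lay above 0 with a median of 0.39, IL32 and CXCL16 rose and GDF15 fell, all 3 calls being lost without either sgRNA1 library.

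Genes of 2 linked stress responses were listed together. The unfolded protein response raises chaperone genes when folding is overloaded, and the integrated stress response acts through ATF4 on amino acid genes. Of 34 such genes 14 rose (6.94% of all genes did), 2 fell (5.59%) and 18 did not pass, with a median of 0.36. HSPA5, the main chaperone of the compartment, stood at 621 CPM in the vector and at 1097 and 1095 in sgRNA1 (0.82 ± 0.13; edgeR, adjusted p = 0.00028), and its co-chaperone gene DNAJB11 at 59.7 and at 118.1 and 119.2 (0.99 ± 0.15). MANF, a secreted protein of the same response, went from 10.5 to 21.3 and 22.2 CPM. DDIT4, an mTORC1 inhibitor gene, was 1 of the 2 that fell, from 66.6 to 36.8 and 43.8 CPM. Rises numbered 7 without either sgRNA1 library, and falls 0 or 1.

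NRF2 targets, which supply glutathione and detoxify electrophiles, gave 12 rises and 0 falls of 30 (6.94% and 5.59% of all genes), with a median of 0.36. In 29 of the 30, sgRNA1 lay above the vector and all wild type, which 35.7% of all genes did. The vector itself already lay above all wild type in 29 of the 30, which 50.6% of all genes did. SLC7A11, the cystine importer gene and also an ATF4 target, went from 364.6 to 809.3 and 700.3 CPM (1.05 ± 0.13). AKR1B10, an aldo-keto reductase gene among the most abundant transcripts of the list, went from 2448 to 4418 and 4421 CPM (0.85 ± 0.11), and SRXN1, which repairs peroxiredoxins, from 260.7 to 413.0 and 414.3 (0.67 ± 0.12). AKR1C1 rose from 341.0 to 683.8 and 692.1 CPM (1.01 ± 0.13), but close homologs may share its reads. Leaving out sgRNA1 replicate 1 or 2 gave 7 or 8 rises, and leaving out wild-type replicate 2 gave 8.

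Targets of p53 gave 0 rises and 4 falls of 25 (6.94% and 5.59% of all genes), while their median was 0.12, above 0. The antiproliferative gene BTG2, also an immediate early gene, fell from 243.2 to 94.96 and 106.9 CPM (−1.27 ± 0.13), and the kinase gene PLK2 from 81.9 to 29.4 and 34.1 (−1.37 ± 0.14). GDF15 and TP53INP1 were the others, and without either sgRNA1 library only 2 of the 4 falls passed.

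Wnt feedback and target genes gave 5 falls and 1 rise of 15, against 5.59% and 6.94% of all genes, with a median of −0.35. LGR5, a stem cell receptor gene for R-spondins, went from 48.3 to 14.6 and 19.3 CPM (−1.51 ± 0.18; edgeR, adjusted p = 1.8e-05), below the 50.8 to 66.9 CPM of wild type. AXIN2, the scaffold that beta-catenin induces to limit itself, went from 14.9 to 6.22 and 6.89 CPM (−1.18 ± 0.22), against 16.4 to 22.1 in wild type. BAMBI, a decoy receptor gene of the TGF-beta family, rose from 13.3 to 33.6 and 34.7 CPM. SOX4, NOTUM and MYC were the other falls. Falls numbered 2 without either sgRNA1 library, and 3 without wild-type replicate 2.

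Receptor and ligand genes changed singly, beside 6.94% higher and 5.59% lower of all genes. TGFA, an EGF receptor ligand gene, rose from 140.3 to 273.8 and 265.6 CPM (0.94 ± 0.12), 1 of 8 genes of the ERBB family and its ligands. ERBB2 (421.9 to 310.9 and 323.4 CPM; −0.41 ± 0.12; edgeR, adjusted p = 0.046) and the feedback inhibitor gene ERRFI1 (26.8 to 17.8 and 15.3) fell, and both calls were lost without either sgRNA1 library. Of 12 Notch pathway genes the ligand gene JAG1 rose (37.2 to 53.8 and 53.7 CPM), and HES1 (15.6 to 5.83 and 6.40) and the glycosyltransferase gene LFNG (100.1 to 54.4 and 61.4) fell. Of 19 TGF-beta and BMP genes the receptor genes TGFBR2 (146.2 to 229.1 and 234.0 CPM) and TGFBR3 (35.3 to 65.0 and 65.2) rose and 0 fell. Calls of JAG1 and HES1 were lost without either sgRNA1 library and that of LFNG without replicate 1.

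Of 12 mesenchymal and matrix genes at or above 5 CPM 7 rose, FN1 and SPOCK3 among them, 1 fell and 4 did not pass, against 6.94% higher and 5.59% lower of all genes. The list held 30 genes, 11 of which had no counts in the vector and sgRNA1. PLAUR, the urokinase receptor gene, went from 48.1 to 81.8 and 81.3 CPM (0.76 ± 0.13) and its ligand gene PLAU from 2.03 to 5.23 and 6.65. THBS1, which encodes thrombospondin, fell from 48.4 to 22.1 and 25.4 CPM (−1.03 ± 0.14). Leaving out either sgRNA1 library gave 4 rises.

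Of 31 epithelial keratin and junction genes 6 rose (6.94% of all genes) and 4 fell (5.59%), with CLDN18 and KRT17 at the ends. KRT8 went from 4758 to 6122 and 6474 CPM (0.40 ± 0.11) and KRT18 from 2109 to 2908 and 3004 (0.49 ± 0.12). CDH1, the E-cadherin gene, stood at 313.0 against 352.1 and 359.7 CPM and did not pass. KRT80 fell from 23.8 to 8.48 and 7.33 CPM (−1.59 ± 0.19) and the desmosome gene PKP2 from 63.0 to 44.2 and 39.0, the latter not without sgRNA1 replicate 2. Rises numbered 2 or 1 without sgRNA1 replicate 1 or 2; without wild-type replicate 2 they numbered 3, and without wild-type replicate 3 they numbered 11. The falls numbered 2 without sgRNA1 replicate 2.

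Of 14 gastric epithelial genes 2 rose (6.94% of all genes) and 2 fell (5.59%). CLDN18 and the gastric protease gene CTSE (552.5 to 983.3 and 1064 CPM; 0.89 ± 0.12) rose. AGR2, a disulfide isomerase gene of mucus cells, fell from 149.1 to 85.8 and 88.8 CPM (−0.77 ± 0.12), and FOXA1, a pioneer factor gene, from 39.6 to 24.4 and 24.01 (−0.71 ± 0.14). Of 5 intestinal genes at or above 5 CPM 0 rose (6.94% of all genes) and 2 fell (5.59%). The falls were MUC13, a membrane mucin gene (311.8 to 166.9 and 168.5 CPM), and CDX2, the master factor of intestinal identity (5.20 to 1.59 and 2.65). CDX2 was included only through its vector level, which is near the minimum of 5 CPM. Leaving out wild-type replicate 3 gave 4 gastric rises, and leaving out sgRNA1 replicate 1 gave 1 intestinal fall.

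Of 26 glycolysis and hypoxia genes 6 rose (6.94% of all genes), 2 fell (5.59%) and 18 did not pass. The glucose transporter gene SLC2A1 went from 179.6 to 416.2 and 421.3 CPM (1.22 ± 0.12; edgeR, adjusted p = 3.4e-06), the hexokinase genes HK2 from 51.0 to 99.9 and 103.4 (1.00 ± 0.14) and HK1 from 55.2 to 102.7 and 113.5, and LDHA from 435.2 to 671.1 and 670.2. The hypoxia markers NDRG1 (94.4 to 38.4 and 36.6 CPM; −1.33 ± 0.13) and CA9 (12.4 to 4.70 and 6.53) fell. The rises numbered 6 or 7 with any single wild-type library left out, and not every fall passed without sgRNA1 replicate 1.

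Of 29 cholesterol and fatty acid synthesis genes 4 fell (5.59% of all genes), 1 rose (6.94%) and 24 did not pass. INSIG1, the sterol sensor partner of SCAP, went from 165.3 to 104.3 and 97.7 CPM (−0.71 ± 0.11). LSS of the sterol pathway was also among the falls, and the desaturase gene SCD rose from 1278 to 1968 and 2026 CPM (0.64 ± 0.12). The count of falls moved between 2 and 7 when single libraries were left out, with 2 without sgRNA1 replicate 1 and 7 without wild-type replicate 3 or 4.

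Cell cycle genes seldom passed the test, though most lay above 0. Of 32 DNA replication genes 2 rose (6.94% of all genes did) and 0 fell, the ribonucleotide reductase gene RRM2 among them (212.1 to 371.7 and 367.2 CPM; 0.80 ± 0.12). Of 29 mitosis and spindle genes 1 rose and 0 fell. Above 0 lay 27 of the 32 replication genes (median 0.12) and 26 of the 29 mitosis genes (median 0.26). The median over all genes was 0.04. Without either sgRNA1 library 1 replication gene and no mitosis gene rose. Of 14 mitochondrially encoded genes none passed in edgeR. Of 3 metallothionein genes MT1E fell, from 9.57 to 2.72 and 2.46 CPM.

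No neighbouring gene of ARID1A at or above 5 CPM passed the test as a fall, though 2 less abundant ones did. The RefSeq table places 47 genes within 500 kb of its start, of which 46 were in the count table and 17 were at or above 5 CPM. Of these 8 rose, against 6.94% of all genes, and 0 fell, with a median of 0.32 and a range from −0.48 (UBXN11) to 0.94 (SFN). SFN, which encodes the epithelial 14-3-3 sigma protein, went from 205 to 379.6 and 404.7 CPM (0.94 ± 0.15; edgeR, adjusted p = 0.00042). TRNP1, a DNA-associated protein gene, went from 89.1 to 146.3 and 162.0 CPM (0.79 ± 0.13), CRYBG2 from 20.5 to 37.8 and 36.2 (0.85 ± 0.17) and RPS6KA1, an ERK-activated kinase gene, from 77.2 to 111.4 and 124.5 (0.61 ± 0.13). Of the 17, the genes nearest to ARID1A, PIGV (22.8 against 25.1 and 23.8 CPM) and ZDHHC18 (41.8 against 59.4 and 63.8), stood at a log2 fold change of 0.10 and 0.56. NUDC and the nuclear receptor gene NR0B2 also rose but overlap each other. In 13 of the 17 the vector lay above all wild-type libraries, which 50.6% of all genes did. Under 5 CPM, LOC124900417 (26691908 to 26696405), which overlaps the start of ARID1A, fell from 1.78 CPM to 0.46 and 0.25 (−2.30 ± 0.61; edgeR, adjusted p = 0.021), and reads of the overlap cannot be told apart from those of ARID1A without the strand. DHDDS-AS1, antisense to DHDDS by its name, stood at 0.82 CPM in the vector and at 0.07 and 0 in sgRNA1 (edgeR, adjusted p = 0.0065). Rises among the neighbours numbered 4 or 3 without sgRNA1 replicate 1 or 2.

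Most changes took sgRNA1 beyond the range of the wild-type libraries, which also differ in RNA content. Of the 806 genes that rose, 751 (93.2%) stood above every wild-type library as well in both sgRNA1 libraries, which 35.7% of all genes did. Of the 649 that fell, 553 (85.2%) stood below every wild-type library too, against 19.8% of all genes. The vector itself lay above all wild type for 65.9% of the genes that rose (50.6% of all genes) and below it for 51.6% of those that fell (27.5%), and inside the wild-type range for 16.3% and 19.0% (21.9%). These shares are raised by the calls themselves, which already place sgRNA1 on that side of the vector. The library labelled knockout replicate 2 entered neither the calls nor the fit. Both sgRNA1 libraries lay above it in 806 of 806 genes that rose (46.1% of all genes) and below it in 646 of 649 that fell (38.9%). That library resembled the vector (2.57 in the chi-square given above). The genes were called against the vector, so these shares were largely fixed by the calls. Knockout replicate 1, compared with wild type, shares no library with the fold change of sgRNA1 against the vector. The wild-type libraries did lend their spread to the calls, which favours genes with a narrow wild-type range. Knockout replicate 1 lay above all wild type for 750 (93.1%) of the genes that rose, against 43.9% of all genes. It lay below for 545 (84.0%) of those that fell, against 32.7%. The other way, it lay below all wild type for 28 (3.47%) of the genes that rose, against 32.7% of all genes. It lay above all wild type for 57 (8.78%) of those that fell, against 43.9%.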

How the data were processed

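RNA of NUGC4 cells, poly(A)-captured per the labels' protocols, was sequenced as read pairs. The authors deposited whole-number read counts per gene symbol, 59250 rows and 14 columns, made per the submitters' processing notes with STAR 2.7.10a alignment to hg38. How genes were counted, with which annotation and strand setting, is not given in the sources used here. Columns were matched to samples by name: 13 were matched and 1, which fits no sample's labels, was not used.

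The test was edgeR's (4.0.16, in R 4.3.3) quasi-likelihood F-test after TMM scaling and filterByExpr, with p-values adjusted over 18668 genes by Benjamini-Hochberg and a threshold of 0.05. The fit held 7 libraries (4 wild type, 1 vector, 2 sgRNA1; 4 residual degrees of freedom), and the single vector library is assumed to vary like the others. Knockout was left out because 1 of its libraries goes against its label. Calls were counted over genes with a group mean of at least 5 CPM. The floor for a group without counts was 3 counts. Intervals of log2 fold changes are standard errors. The scripts were tested on simulated data.

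Positions, biotypes and promoters are from RefSeq (GRCh38.p14), which held 57841 of the symbols. Older symbols of named genes were looked up among its synonyms.

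Genes named are ARID1A, ZIM3 and ZNF10; the 15 largest rises and 15 largest falls among protein-coding genes past the threshold, with both sgRNA1 libraries on the same side of the vector; from each list with at least 3 called members, up to 4 of them by smallest adjusted p; called BAF subunits; and called neighbours of ARID1A. Other list members, FOSL1, ARID1B, SMARCA4, CDH1, PIGV and TM4SF4 are named outside the rule, after their values were seen. Some genes that the rule names are not reported here, though counts over lists include them. The genes, lists and tests were chosen with earlier results of these data known. Alternatives were DESeq2 1.42.0 size factors and Wald test, limma-voom (limma 3.58.1), no filter, and other level and fold minimums. Further runs used other sets of libraries, or left out each wild-type and sgRNA1 library in turn. The single vector library could not be left out.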

Additional observations from a re-analysis of the deposited data

Results flagged for a closer look

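Within the 4 wild-type libraries, 6 named genes had 1 library apart from the rest by Dixon's ratio, the gap to the nearest library over the whole range, above the 95% critical value for groups of 4. The highest library stood apart for ARC (0.925), CCN2 (0.925), CCN1 (0.837), AKR1C1 (0.896) and NUDC (0.886), and the lowest for LGR5 (0.881). In all, 86 such groups were tested, and chance flags about 1 in 20. The library labelled knockout replicate 2, which was left out of the fit of 7 libraries, held 20.495 CPM of ZNF10, against at most 0.20 CPM in wild type.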

How the results depend on the processing

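ARID1A kept its direction under every alternative run. It stood at −1.24 (edgeR, adjusted p = 0.679) with all 9 NUGC4 libraries grouped as named, where 0 genes rose and 0 fell (527 and 469 at an unadjusted p under 0.05), and at −1.23 (adjusted p = 0.445) with all 13 matched libraries of both lines, where 15 rose and 14 fell. DESeq2 and limma-voom were not run on those sets. Both sets hold the library that goes against its label: with it alone added to the 7 libraries, 814 rose and 638 fell, and with knockout replicate 1 alone added, 811 and 642. The 3 compared libraries alone gave 2006 and 1675 on 1 residual degree of freedom. DESeq2's Wald test gave 889 and 581, limma-voom 992 and 684, DESeq2 size factors 852 and 612, and no filter 929 and 689. Asking for a log2 fold change of 1 or more in size left 247 and 196, and a mean of at least 20 CPM 654 and 413. Leaving out single libraries gave 403 to 1159 rises and 285 to 954 falls, with ARID1A between −1.28 and −1.19. The highest counts came without wild-type replicate 3 and the lowest without sgRNA1 replicate 2. Of 106 named genes past the threshold, 22 lost their call without sgRNA1 replicate 1, 21 without replicate 2, 5 without wild-type replicate 2, 2 without wild-type replicate 1 and 0 without the other two, and none reversed under any alternative. TMM and DESeq2 size factors shifted the median of all genes by under 0.1. No paired analysis was possible because the vector group holds 1 library, so the groups share only replicate number 1. At these depths 3 counts stood for 0.185 to 0.198 CPM in the vector and sgRNA1 libraries.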
